A study of Mus musculus with 64 samples.

Results

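Nuclear genes for the mitochondrial respiratory chain, ATP synthase, protein import, inner-membrane carriers and the mitochondrial ribosome were followed in mouse eggs and preimplantation embryos. Members were the genes measured by probes with 1 gene symbol that began with Nduf, Cox4 to Cox8, Atp5, Uqcr, Sdh, Timm, Tomm, Mrpl, Mrps or Slc25, together with Opa1. The rule found 40 of the 3089 genes that such probes name, on 49 of 22575 probes. Where a gene had more than 1 probe, as 8 members did, the probe of highest mean value stood for it. The 40 genes comprise 5 of complex I, 2 of complex II, 1 of complex III, 4 of complex IV, 3 of ATP synthase, 6 of import, 8 carriers, 10 of the mitochondrial ribosome, and Opa1. Most genes of these families were on no one-symbol probe and were not analysed here.

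Mitochondria make most of their proteins from nuclear messages. These proteins enter through the TOM pore of the outer membrane and the TIM translocases of the inner membrane, and join the few proteins that the mitochondrial ribosome makes from mitochondrial DNA in ATP synthase and every respiratory complex but complex II, whose subunits are all nuclear. The mouse egg carries a large maternal store of mitochondria and messages. The maternal messages are degraded around the first cleavages, while the embryo's own genome is switched on in earnest at the 2-cell stage.

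Total RNA was measured on 64 arrays of 2 colours, with eggs or embryos in channel 1 and a shared reference RNA in channel 2. A stage set, whose reference is named Universal Control, has 4 arrays for each of 7 stages, from the unfertilized and fertilized egg through embryos of 2, 4 and 8 cells to the morula and the blastocyst. A treatment set, whose reference is named Universal Reference, has 12 groups of 3 arrays. Its controls were taken in the 1-cell embryo, early at 21 h and late at 32 h, and likewise in the 2-cell embryo at 43 h and 54 h. AM groups are labelled with the last 3 of these hours, DMSO and AC groups with 32 h and 43 h, and a CHX group with 43 h alone. The labels do not say when a drug was added. The names AM, AC, DMSO and CHX are not expanded in the labels. They were read, from knowledge of such experiments, as α-amanitin (which blocks RNA polymerase II), aphidicolin (which blocks DNA synthesis), dimethyl sulfoxide (a solvent) and cycloheximide (which blocks translation). Not given in the sources used here were strain, dose, the event from which hours count, and whether replicate arrays came from separate collections of embryos. The p-values therefore measure only the spread between these arrays, which may be technical.

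Values are log2 ratios of embryo over reference, computed from the deposited log10 ratios, and a difference of 1 is a change of 2-fold. The direction, embryo over reference, is likely but not settled. Its basis is that the oocyte genes Zp2, Bmp15, Btg4 and Kit, all 4 that could be read of 11 listed, lay above the reference in unfertilized eggs (3.22, 3.13, 6.50 and 3.52, with Btg4 partly at the upper limit of the scale) and lower in blastocysts (0.93, 2.46, 2.10 and 0.33). Of 14 listed blastocyst genes 3 were readable: Nanog (0.77 in unfertilized eggs, 1.43 in blastocysts) and Hand1 (2.09 and 2.55) had higher means in blastocysts, Gata4 (0.79 and -0.55) a lower one. With the opposite sign each probe's rise below would be a fall, and in the 8 genes with several probes the choice of probe could also differ. Of 13 listed cumulus cell genes 2 were readable, Cyp11a1 and Fst, with stage means from -0.10 to 1.46. No gene of the sperm and oviduct lists was readable.

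The stage arrays fell into 2 parts that no label records. The fourth unfertilized egg array deviated from the first 3, and the last 2 morula arrays deviated from the first 2, in like manner: over all probes these deviations correlated at 0.601. These 3 arrays, all 8-cell arrays and all blastocyst arrays form the second part of 11 arrays. The other 17 arrays form the first, so the step from 4-cell to 8-cell embryos coincides with the division. The 8-cell and blastocyst arrays were placed by their correlation with the morula deviation, 0.39 to 0.63. For fertilized egg, 2-cell and 4-cell arrays it was -0.61 to -0.12. Whether these correlations reflect stage was not tested. Of the 40 members, 26 had the same sign in the egg and the morula deviation, and the size of these deviations varied from gene to gene. The share of all probes with the same sign is not given here. Slc25a3 was among the most displaced and lay at -0.66, 0.47 and -0.70 in unfertilized eggs 1 to 3 and at 2.24 in egg 4, and at 0 (as deposited) and 0.01 in morulae 1 and 2 and at 2.85 and 2.48 in morulae 3 and 4. For this reason a fit with the part as a block accompanies the stage comparisons, with a fit inside a part where it holds both stages. In the treatment set, the first 43 h AC array stood apart, with a mean correlation of 0.760 with the other arrays of its group.

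Over the 7 stages, 34 of 40 members varied by limma's F test, which 64.3% of all probes passed, and 26 with the part as a block, which 40.9% passed. Mrpl44, Ndufa1, Ndufc1, Slc25a15, Slc25a24 and Slc25a37 did not pass, the lowest adjusted p among them being 0.0901. The range of a member's 7 stage means had a median of 1.83 log2 units. The widest ranges were those of Atp5mpl, a small proteolipid of ATP synthase (4.34), Mrpl20, a protein of the large mitochondrial ribosomal subunit (3.98), Slc25a3, the phosphate carrier (3.66), Tomm40, the pore of the outer membrane (3.55) and Sdha, the catalytic flavoprotein of complex II (3.41). Genes of 1 subgroup differed in their courses. Members with their lowest mean in unfertilized eggs numbered 14 and came from 6 subgroups, among them 5 of the 10 ribosomal proteins, while 7 members, Sdha and Atp5g1 among them, had their highest mean there. The 14 include Ndufa1, which did not pass the F test, and the egg means include array 4 of the second part. The matching shares of all probes were not computed, so these counts are not read as a trait of the members.

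**Figure D1:**
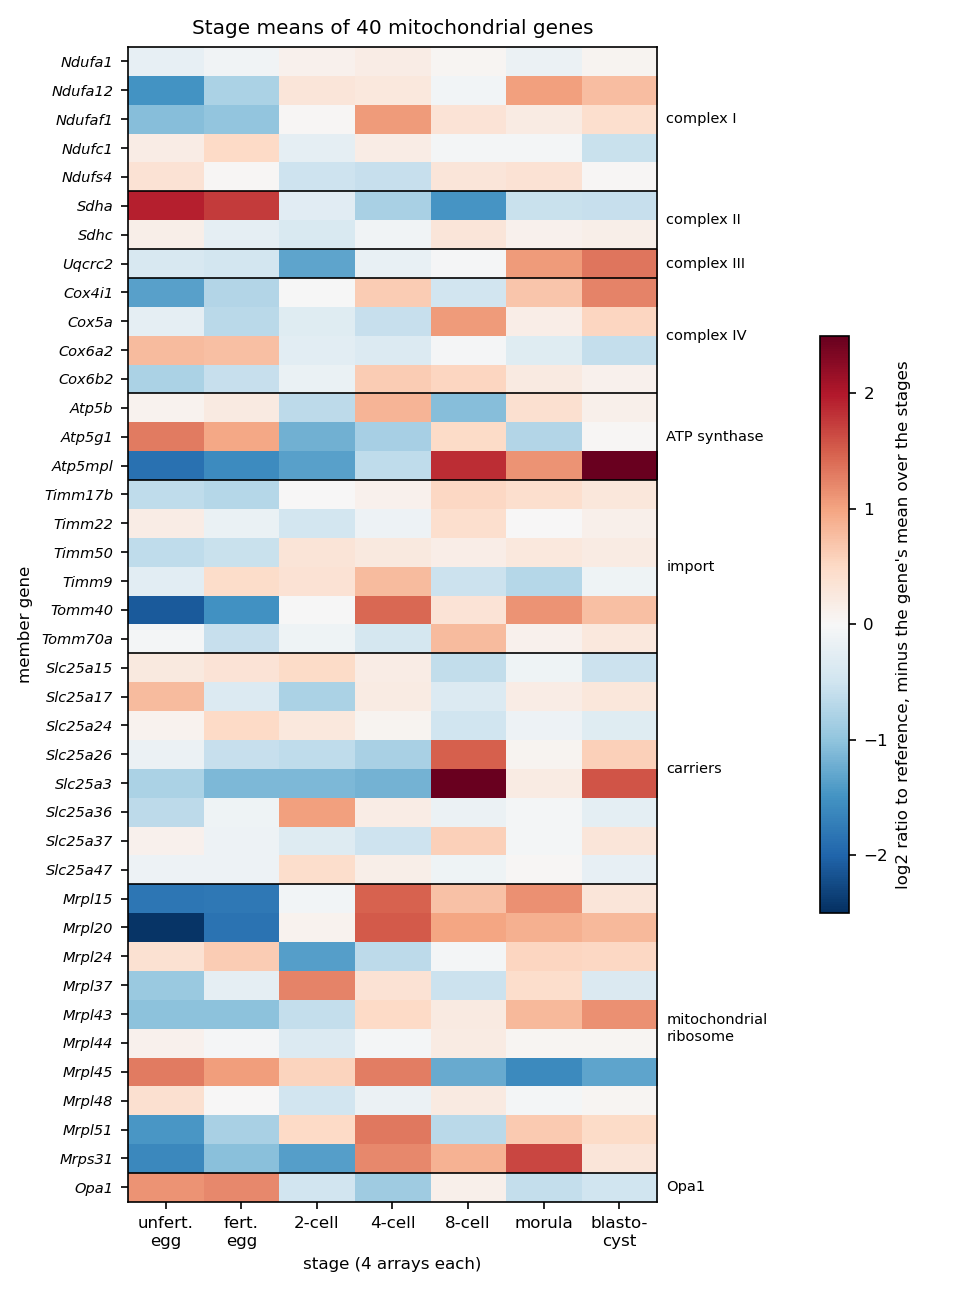
Stage means of the 40 genes by subgroup, as the log2 ratio to the reference minus the gene's own mean over the 7 stages (blue lower, red higher, 4 arrays a stage). Sdha, Opa1 and Atp5g1 are high in eggs and low in 2-cell embryos, Mrpl15, Mrpl20, Mrpl51 and Tomm40 run from low in eggs to high in 4-cell embryos, and genes of 1 subgroup often have opposite colours in the same stage.

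The start-site regions of 4 genes are shown because the results below turn on them: the RNA of Opa1 and Sdha fell and that of Mrpl20 and Mrpl51 rose in 2-cell embryos, and these 4 were the members that differed between AM and control embryos at 54 h. Each sequence is the gene's strand, 5′ to 3′, from 170 bases before the RefSeq start to 30 bases from the start on, in GRCm38.p6. Capitals mark a motif match. Opa1 (chr16:29579164-29579363, plus strand) holds the palindromic core motif of NRF1, whose letters are the capitals in its sequence, at -59. Mrpl51 (chr6:125192030-125192229, plus strand) holds the GABPA motif CCGGAAGT at -90. Mrpl20 (chr4:155802708-155802907, plus strand) and Sdha (chr13:74350211-74350410, minus strand) hold none of the motifs searched.
Opa1: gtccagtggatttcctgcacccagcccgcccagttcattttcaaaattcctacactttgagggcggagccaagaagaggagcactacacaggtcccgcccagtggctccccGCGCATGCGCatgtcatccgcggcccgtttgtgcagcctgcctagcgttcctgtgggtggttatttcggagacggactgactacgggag
Mrpl51: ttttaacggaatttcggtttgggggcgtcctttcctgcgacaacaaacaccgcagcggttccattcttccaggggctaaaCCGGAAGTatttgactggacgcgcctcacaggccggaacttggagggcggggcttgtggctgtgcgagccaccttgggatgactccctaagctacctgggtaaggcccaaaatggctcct
Mrpl20: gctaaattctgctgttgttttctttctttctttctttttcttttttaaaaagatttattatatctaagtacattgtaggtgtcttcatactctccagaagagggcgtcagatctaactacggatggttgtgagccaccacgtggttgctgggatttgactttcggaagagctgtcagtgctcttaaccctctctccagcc
Sdha: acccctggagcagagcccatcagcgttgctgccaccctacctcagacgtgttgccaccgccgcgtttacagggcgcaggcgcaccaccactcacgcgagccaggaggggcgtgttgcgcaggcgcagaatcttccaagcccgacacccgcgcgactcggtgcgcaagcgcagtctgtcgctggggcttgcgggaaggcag

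NRF1 and GABPA are known as activators of nuclear genes for mitochondrial proteins, YY1 as a regulator found at many of the same starts and ESRRA as a nuclear receptor that acts with PGC-1 coactivators. Both strands were searched from 250 bases before to 50 bases from the start on, in the 32 members that RefSeq promoters matched. The NRF1 letters were in 1 member (3.12%) against 1.07% of 27025 genes. The GABPA letters were in 4 members (Mrpl43, Mrpl48, Mrpl51 and Tomm70a), or 12.5% against 4.31%. The YY1 letters AAGATGGCG were in 5 (Mrpl37, Ndufc1, Ndufs4, Slc25a3 and Timm50), or 15.6% against 1.64%, and the ESRRA letters TCAAGGTCA in 0 against 0.466%. The YY1 matches began at 26, 22, 35, 41 and 11 in these 5 genes. All therefore lie downstream of the RefSeq start, in the transcribed stretch. No member held more than 1 of the motifs, and 10 of the 32 held any, against 7.21% of all genes.

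Fertilized eggs were compared with unfertilized eggs. By limma, 0 of 40 members passed an adjusted p of 0.05, where 0.766% of all probes did. An unadjusted p under that threshold was found for 6 of the 40 members and for 3513 of 22575 probes. Slc25a17, a carrier of the peroxisome membrane, came closest at -0.55 ± 0.62 (SD, n = 4) in unfertilized and -1.69 ± 0.07 in fertilized eggs. It passed, and was the single member to do so, with the part as a block (-1.32, with 1.66% of probes called), in the first part alone (-1.35, 1.28%) and without unfertilized egg array 1 or array 4 (-1.22 and -1.35).

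The step from the fertilized egg to the 2-cell embryo changed 16 members, with 10 higher and 6 lower, where 27.4% of all probes were called (14.5% higher and 12.9% lower). Proteins of the large mitochondrial ribosomal subunit gave 4 of the rises, import 3, carriers 2 and complex I 1. The falls were spread over 6 subgroups, with Sdha, Atp5g1 (one of the genes for the rotor ring of ATP synthase), Opa1 (the GTPase that fuses inner membranes), Mrpl24, Cox6a2 (the muscle form of a complex IV subunit) and Uqcrc2 (a core subunit of complex III). The median difference of the 40 members was -0.04, against 0.09 over all probes.

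Mrpl20 lay at -2.80, -1.96, -2.25 and -3.20 in fertilized eggs 1 to 4 and at -0.40, -1.57, -0.04 and -0.42 in 2-cell embryos, a rise of 1.94 ± 0.29 (log2 difference ± SE, n = 4 per stage, limma adjusted p = 9.8e-06), or 3.84-fold. Every 2-cell array was above every fertilized egg array. Mrpl15 lay at -3.89, -2.52, -2.76 and -3.40 in fertilized eggs and at -1.89, -2.04, -0.96 and -0.88 in 2-cell embryos, again without overlap (3.26-fold, adjusted p = 0.00021). Tomm40 went from -2.16, -1.36, -1.61 and -2.35 to -0.75, -0.15, -0.70 and 0.10 (2.81-fold, adjusted p = 0.00013). The other import genes that rose encode parts of the presequence translocase of the inner membrane, Timm50 by 1.83-fold and Timm17b by 1.66-fold. Among the remaining rises were Mrpl37 (2.76-fold), Mrpl51 (2.46-fold), the pyrimidine nucleotide carrier Slc25a36 (2.19-fold), the complex I assembly factor Ndufaf1 (2.01-fold) and Slc25a47 (1.48-fold).

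Sdha lay at -0.28, -0.24, -0.69 and 0.01 in fertilized eggs and at -2.46, -2.54, -2.40 and -1.94 in 2-cell embryos, and fell 4.10-fold (log2 difference -2.04 ± 0.36, adjusted p = 9.78e-05). Its partner Sdhc, which anchors the complex in the membrane, lay at -0.69 ± 0.18 (SD, n = 4) and -0.85 ± 0.46 and did not pass. Atp5g1 went from 2.83, 2.30, 2.41 and 2.80 to -0.24, 0.40, 1.09 and 0.49, a 4.45-fold fall and the largest among the members at this step. Opa1 went from 0.90, 0.44, 0.23 and 0.49 to -1.15, -1.77, -1.12 and -0.59, a 3.19-fold fall. In Sdha, Atp5g1 and Opa1 the fertilized egg and 2-cell arrays did not overlap. The second Opa1 probe also fell, by 2.12 on the log2 scale. Mrpl24 fell 4.07-fold on its chosen probe, but its other probe rose by 1.70, so no direction is given for that gene.

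The groups of 12 of the 16 called members did not overlap, the 4 that did being Cox6a2, Mrpl51, Ndufaf1 and Uqcrc2. A call itself favours separate groups, and the share of all probes without overlap was not computed, here or in any comparison below. Separate groups are therefore not read as further support for a call. All 16 calls were also made with the part as a block, where 31.2% of all probes were called, and 14 members were called in the first part alone (24.4%). Both stages lie wholly in the first part, so the block leaves their differences unchanged and alters only the estimate of the spread. Calls kept with the block are therefore not read as further support. Leaving out single arrays ended 4 calls. That of Cox6a2 (-1.01) was lost without fertilized egg array 1 (-0.62) or 4 (-0.79) or 2-cell array 2 (-0.95), and without 2-cell array 1, where its size was nearly as before. That of Uqcrc2 was lost without fertilized egg array 1, 2 or 4 or 2-cell array 1 or 2 (-0.88 to -0.69). That of Slc25a47 was lost without array 2 of either stage (0.46 and 0.40). Ndufaf1 kept it only without fertilized egg array 2 or 2-cell array 1, and lay between 0.74 and 1.06 without the others. Other members were called only when an array was left out. Without fertilized egg array 2, Ndufa12, an accessory subunit of complex I, was 1.90 higher and Cox4i1, a nuclear subunit of complex IV, 1.31 higher in 2-cell embryos. Mrpl48 passed without fertilized egg array 2 (-0.61) or 2-cell array 1 (-0.60), and Mrpl43 without 2-cell array 2 (0.57).

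**Figure D2:**
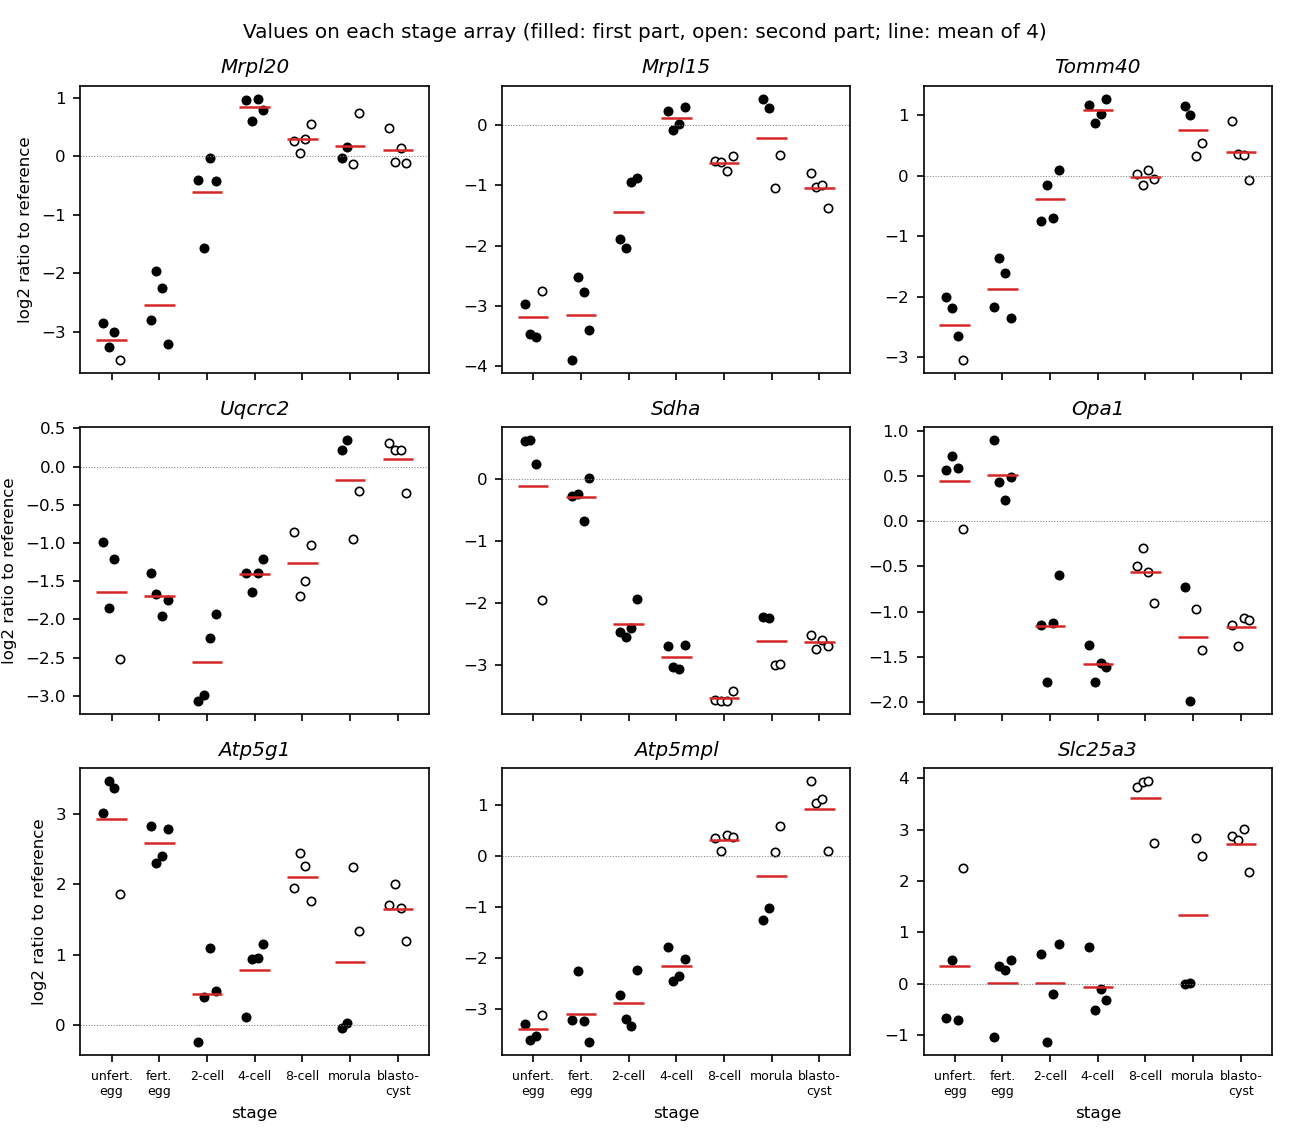
Log2 ratio to the reference on each stage array for 9 members; filled points are arrays of the first part, open points arrays of the second part, and lines the means of 4. Mrpl20, Mrpl15 and Tomm40 rise from eggs to 4-cell embryos within the filled points and Sdha, Opa1 and Atp5g1 fall between fertilized eggs and 2-cell embryos, whereas in Slc25a3 the open points of unfertilized eggs and morulae lie above the filled ones, with 2.24 in unfertilized egg array 4.

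From the 2-cell to the 4-cell stage 11 members changed, 9 higher and 2 lower, where 13.6% of all probes were called (9.58% higher and 4.04% lower). The rises continued for Mrpl20 (2.71-fold), Mrpl15 (2.93-fold) and Tomm40 (2.75-fold), and included Mrpl43 of the ribosome (2.13-fold), Mrps31 of its small subunit, Atp5b (the catalytic beta subunit of ATP synthase), Uqcrc2, Cox6b2 (the testis form of a complex IV subunit) and Slc25a17. Mrpl37 and Slc25a36, which had risen in 2-cell embryos, fell 1.82-fold and 1.78-fold. The median over members was 0.31, against -0.10 over all probes.

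Mrpl20 reached 0.97, 0.59, 0.98 and 0.79 in 4-cell embryos and Mrpl15 reached 0.23, -0.09, 0.01 and 0.30, in both cases above every 2-cell array. Tomm40 reached 1.17, 0.87, 1.02 and 1.27. From fertilized eggs to 4-cell embryos its mean thus went from -1.87 ± 0.46 to 1.08 ± 0.17 (SD, n = 4). Uqcrc2 ran the other way first, at -1.69 ± 0.23 in fertilized eggs, -2.56 ± 0.56 in 2-cell and -1.41 ± 0.18 in 4-cell embryos. Mrps31 rose by 2.59 ± 0.77, but 2-cell array 1 was held at the lower limit of the scale, -6.64, while the other 2-cell arrays lay at -2.08, -1.72 and -0.79. Without it the difference was 1.31 and the call was lost.

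All 11 calls were also made with the part as a block (18.4% of probes), and 11 members were called in the first part alone (13.1%). These stages too lie wholly in the first part, so the block cannot change their differences, and calls kept with it are not further support. Mrpl15, Mrpl20, Mrpl43, Slc25a36 and Tomm40 kept the call whichever array was left out. Without single arrays that ended their calls, Atp5b lay between 1.12 and 1.54 (2-cell arrays 1 and 2, 4-cell arrays 1, 2 and 4) and Cox6b2 between 0.69 and 0.86 (2-cell arrays 1 and 2, any 4-cell array). Mrpl37 lay between -0.86 and -0.67 (2-cell arrays 1 and 2, 4-cell arrays 1 and 4), Uqcrc2 between 0.98 and 1.08 (2-cell arrays 1 and 2, 4-cell array 4) and Slc25a17 between 0.76 and 0.98 (2-cell array 2, 4-cell arrays 1 and 4). Mrps31 also lost its call without 4-cell array 1 (2.59) or 4 (2.53). Ndufaf1 gained one without 2-cell array 3 or 4 or 4-cell array 3 (1.18 to 1.30). The number of members called was 6 without 2-cell array 1, 2-cell array 2 or 4-cell array 1, and 5 without 4-cell array 4.

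Between the 4-cell and 8-cell stages 15 members were called, 9 higher and 6 lower, against 41.1% of all probes (20.9% higher and 20.2% lower). With the part as a block 2 members were called (2.56% of probes), and 1 of the 15 calls was also made there, that of Mrpl45. These stages lie wholly in different parts, so stage and part cannot be told apart within them and the block rests on the unfertilized eggs and morulae. Slc25a3 had the largest difference, 3.66 ± 0.62, which was 1.05 ± 0.58 with the block. Slc25a26, the carrier of S-adenosylmethionine, went from 2.31 to 0.20 with the block, Cox5a of complex IV from 1.64 to 0.09 and Atp5b from -1.92 to -0.07. Slc25a3 has 2 probes and Slc25a26 has 3, and their values here are those of the chosen probes alone. The chosen Slc25a3 probe was listed at exactly 0 on 10 arrays. Of the 2 cumulus cell genes, Fst was also higher in 8-cell embryos (1.46 ± 0.07) than in 4-cell embryos (0.52 ± 0.31). Only 1 of the 2 was called, and their median difference was 0.58. No value with the block is given for them. The part of cumulus cells in these differences was not tested. Without 4-cell array 2, the calls of Mrpl37 (-0.71), Timm22 (0.48) and Timm9 (-1.14) were lost, and Slc25a37, which imports iron, passed without 4-cell array 3 or 8-cell array 1 or 4 (1.30 to 1.33).

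Values that moved less with the block were those of Atp5mpl, Mrpl45 and Opa1. Atp5mpl lay at -1.78, -2.45, -2.37 and -2.03 in 4-cell embryos and at 0.35, 0.11, 0.42 and 0.39 in 8-cell embryos, 5.55-fold higher, and its difference of 2.47 was 1.48 with the block, where it was not called. Opa1 was 1.02 ± 0.26 higher, and 1.23 ± 0.37 with the block, also not called there, while its second probe lay at -0.38 ± 0.56 and did not pass. Mrpl45 went from 0.77, 0.64, -0.05 and 0.58 to -1.99, -1.93, -2.24 and -2.11, a fall of 2.55 ± 0.38, and of 2.23 ± 0.56 with the block. Its other probe rose by 2.65 at the same step, so no direction is given for that gene. With the block Mrpl24 was called in addition on its chosen probe, at 1.66 ± 0.31.

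Morulae were compared with 4-cell embryos as well, because morulae 1 and 2 lie in the same part as all 4-cell arrays. The 6 members called were 4 higher and 2 lower (10.8% of probes, 3.84% higher and 7% lower). Of these, Atp5mpl, Mrpl24, Mrpl45 and Uqcrc2 were called also with the block (7.61% of probes). Within the first part 3 were called (5.19% of probes): Uqcrc2, Mrpl24 and Mrpl45, the latter pair on their chosen probes. Uqcrc2 was 1.24 ± 0.32 higher in morulae, 1.75 ± 0.29 with the block and 1.70 ± 0.31 in the first part alone. Atp5mpl was 1.76 ± 0.36 higher and 1.02 ± 0.36 in the first part alone, without a call there. Ndufs4, an accessory subunit of complex I (0.94 ± 0.26), and Timm9, a small chaperone between the membranes (-1.52 ± 0.44), were called in the fit of all arrays and in neither alternative. Their calls were also lost without single arrays, for Ndufs4 4-cell 2, 3 or 4 or morula 4 (0.81 to 0.89) and for Timm9 4-cell 1, 2 or 4 or morula 2 (-1.53 to -1.33).

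Morulae differed from 8-cell embryos in 4 members, 3 higher and 1 lower (4.88% of probes, 3.24% higher and 1.64% lower), with Mrpl51, Uqcrc2 and Mrpl37 higher by 1.34, 1.09 and 0.98 and Slc25a3 lower by 2.27 on the log2 scale. With the block 0 members and 0% of probes passed in limma (6 members at an unadjusted p under 0.05), and in the second part alone 0 members and 0.00443% of probes (11 members). No share of all probes is given beside these unadjusted counts, so they are not read as a result about the members. In the second part alone Mrpl51 was 0.96 ± 0.26, Uqcrc2 0.64 ± 0.28, Mrpl37 0.61 ± 0.22 and Slc25a3 -0.94 ± 0.34. Leaving out 8-cell array 2, 3 or 4 or morula array 1 or 2 left 0 calls, while leaving out morula array 3 or 4 left 9 and 8. The shares of all probes called in these fits are not given. Morulae 3 and 4 lie in the second part with all 8-cell arrays. Without 1 of them the comparison becomes more of a comparison between the parts. Without 8-cell array 1 the call of Slc25a3 was lost (-2.20). Over all single arrays that ended a call, the values lay between 1.18 and 1.40 for Mrpl51, 0.92 and 1.17 for Uqcrc2, 0.81 and 0.99 for Mrpl37, and -2.57 and -1.83 for Slc25a3.

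Blastocysts and morulae did not differ in any member by limma (0 of 40, against 1.33% of probes). An unadjusted p under the threshold was found for 4 members and for 3337 of 22575 probes. Atp5mpl had the smallest p, at -0.40 ± 0.88 (SD, n = 4) in morulae and 0.94 ± 0.59 in blastocysts. It was called without morula array 3 (1.50), morula array 4 (1.67) or blastocyst array 4 (1.61), and without morula array 3 so were Mrpl15 (-1.12) and Mrpl37 (-0.98). Morulae 3 and 4 lie in the second part with all blastocyst arrays, and Atp5mpl was 1.48 higher on them than on morulae 1 and 2. Leaving out 1 of them therefore moves the morula mean towards the first part. With the block 0 members were called (1.28% of probes, 5 members at an unadjusted p under 0.05). No share of all probes is given beside that unadjusted count, so it is not read as a result about the members. In the second part alone 1 member was called, Mrps31, at -0.92 ± 0.18 (2.36% of probes).

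Blastocysts and 8-cell embryos lie in the same part. Members higher in blastocysts were Cox4i1, Uqcrc2, Mrpl51 and Mrpl43, 4 in all and 0 lower, where 3.69% of probes were called (3.33% higher). Uqcrc2 lay at -0.85, -1.69, -1.50 and -1.03 in 8-cell embryos and at 0.30, 0.22, 0.22 and -0.35 in blastocysts, a rise of 1.36 ± 0.32 (2.57-fold, adjusted p = 0.011). Cox4i1 lay at -3.81, -3.96, -4.52 and -3.79 and then at -1.55, -2.52, -2.13 and -2.97 (3.31-fold). The groups of all 4 genes were separate, which a call itself favours. The block kept all 4 calls (5.36% of probes called), but it cannot change a difference between stages of the same part, so this is not further support.

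Within the second part alone 9 members were called, 7 higher and 2 lower (16.8% of probes, 10.7% higher and 6.03% lower). Sdha rose there by 0.89 ± 0.11 and Atp5b by 1.19 ± 0.22, while Opa1 fell by 0.61 ± 0.16 and Mrps31 fell by 0.57 ± 0.15. The second Opa1 probe was 1.67 ± 0.56 higher in blastocysts in the fit of all arrays and did not pass. Sdha lay at -3.55, -3.58, -3.57 and -3.42 in 8-cell embryos and at -2.52, -2.74, -2.59 and -2.70 in blastocysts. In the fit of all arrays Mrpl43 alone kept its call whichever array was left out, and without any 1 array 1 to 3 members were called. The lowest count came without 8-cell array 2, and 2 were called without 8-cell array 1, 3 or 4 or blastocyst array 1, 2 or 3. Without the arrays that ended their calls, Cox4i1 lay between 1.48 and 1.80 (any 8-cell array, blastocyst arrays 1, 2 and 3), Mrpl51 between 0.96 and 1.27 (any array of either stage) and Uqcrc2 at 1.22 (8-cell array 2).

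In the treatment set, control embryos at 32 h did not differ from those at 21 h in any member by limma (0 of 40, against 0.315% of probes). An unadjusted p under the threshold was found for 6 members and for 1918 of 22575 probes. Across the first cleavage, from 32 to 43 h, 6 members fell and 0 rose, where 3.6% of probes were called, 3.2% as falls. The 6 come from 6 subgroups: Uqcrc2, Sdha, Atp5b, Slc25a17, Timm9 and Mrpl44. Uqcrc2 lay at -2.04, -1.76 and -1.79 at 32 h and at -4.16, -3.99 and -4.55 at 43 h, a 5.17-fold fall (log2 difference -2.37 ± 0.30, n = 3 per group, limma adjusted p = 1.12e-05). Sdha went from -1.13, -0.87 and -1.24 to -3.43, -3.62 and -3.21, a 5.06-fold fall, and Atp5b from -2.90, -2.50 and -3.47 to -4.82, -4.62 and -4.69, a 3.38-fold fall. The groups of all 6 genes were separate, which a call itself favours.

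Sdha, Slc25a17 and Uqcrc2 kept the call whichever array was left out. Timm9 lost it without any 1 of the 6 (-1.83 to -1.40), Mrpl44 without any but 43 h control array 2 (-0.85 to -0.70), and Atp5b without 32 h control array 2 (-1.53), when 3 members were called. Uqcrc2 was likewise low in the other embryos at 43 h, at -4.32 ± 0.15 (SD, n = 3) with DMSO and -3.70 ± 0.42 with AC, against -1.79 ± 0.30 and -2.09 ± 0.24 at 32 h, comparisons that were not tested.

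From 43 to 54 h, within the 2-cell stage, Mrpl20 rose and Sdha and Opa1 fell (3 members, against 4.08% of probes, 2.31% higher and 1.78% lower). Mrpl20 lay at -3.22, -2.67 and -3.16 at 43 h and at -2.10, -1.54 and -1.64 at 54 h, a 2.39-fold rise (adjusted p = 0.0029). Sdha fell a further 3.21-fold, to -4.67, -5.41 and -5.23. Opa1 lay at -0.69, -0.21 and -0.31 and then at -2.01, -2.44 and -1.96, a 3.32-fold fall (adjusted p = 0.01). The 43 h and 54 h arrays did not overlap in any of the 3 genes, which a call itself favours. The second Opa1 probe fell by 3.05 on the log2 scale at this step. Without 54 h control array 2 the calls of Sdha (-1.53) and Opa1 (-1.58) were lost, leaving 1, and without 43 h control array 3 that of Opa1 (-1.68). In the values as deposited, without quantile normalization, Sdha was at -1.31 ± 0.41 and not called.

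The stage set and the controls of the treatment set share no array. Both run from 1-cell to 2-cell embryos, although the stage set gives no hours, so whether the spans match is not known. From 21 h to 54 h controls, 8 members were called, 2 higher and 6 lower (13.1% of probes, 6.16% higher and 6.97% lower). That comparison was chosen after seeing the data. Of the 16 members called from fertilized egg to 2-cell embryo, 15 had the same sign there and 6 were called the same way. Over all probes called in the stage set these shares were 86.2% and 26.4%. The 6 were Mrpl20 (1.94 in the stage set, 1.31 in the controls), Mrpl51 (1.30 and 1.23), Mrpl24 (-2.02 and -1.10 on its chosen probe), Opa1 (-1.67 and -1.68), Uqcrc2 (-0.86 and -1.53) and Sdha (-2.04 and -3.58). Mrpl15 was the member of opposite sign, at 1.70 and -0.14 ± 0.42 (SE), and Mrpl37 lay at 1.46 and 0.03 ± 0.27.

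**Figure D3:**
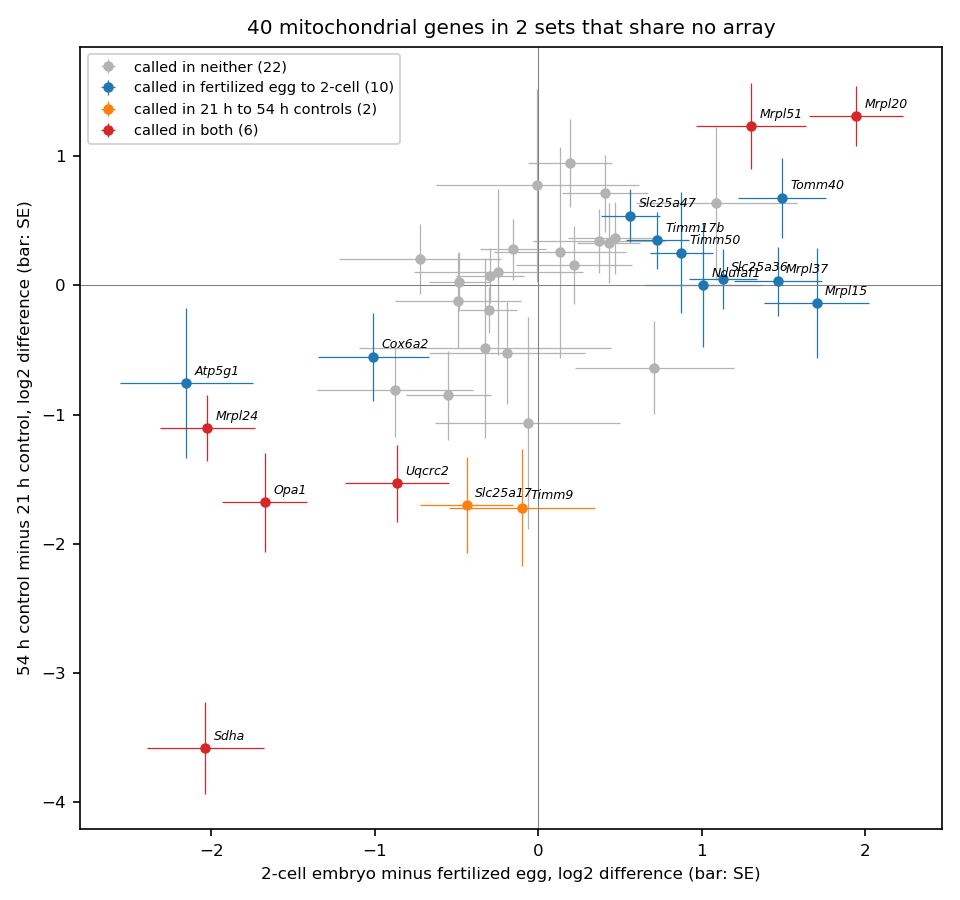
Log2 difference from fertilized egg to 2-cell embryo (x axis, stage set) against that from 21 h to 54 h controls (y axis, treatment set) for the 40 members, with bars of 1 SE. Red points were called in both sets (6), blue in the first alone (10), orange in the second alone (2) and grey in neither (22); Sdha lies lowest, at -3.58 in the controls.

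AM was compared with control at each hour to see which messages differed when transcription is blocked. At 32 h 0 of 40 members and 0% of probes passed in limma, with 0 members and 475 of 22575 probes at an unadjusted p under the threshold. At 43 h 0 members and 0% of probes passed. The unadjusted p was under the threshold for 982 probes and for 1 member, Atp5b (0.93 ± 0.37 higher with AM). At 54 h 4 members differed, against 6.45% of probes (2.12% higher and 4.34% lower), with 2 higher under AM, Opa1 and Sdha, and 2 lower, Mrpl20 and Mrpl51.

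Opa1 lay at -2.01, -2.44 and -1.96 in 54 h controls and at -0.92, -0.01 and -0.68 with AM, 3.03-fold higher (log2 difference 1.60 ± 0.38, n = 3 per group, limma adjusted p = 0.0093). Sdha lay at -4.67, -5.41 and -5.23 in controls and at -3.26, -3.64 and -4.04 with AM, 2.74-fold higher (adjusted p = 0.01). Both genes had fallen between 43 and 54 h in controls, and in AM embryos they lay between the 43 h and 54 h control means. Mrpl20 lay at -2.10, -1.54 and -1.64 in controls and at -2.79, -3.05 and -2.68 with AM, 2.11-fold lower (adjusted p = 0.0035). Its 54 h level with AM, -2.84 ± 0.19 (SD, n = 3), was close to the 43 h control level of -3.02 ± 0.30. Mrpl51 lay at -3.20, -2.80 and -3.13 in controls and at -3.66, -4.11 and -5.45 with AM, 2.57-fold lower (adjusted p = 0.012). The control and AM arrays did not overlap in any of the 4, which a call itself favours.

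These are the genes whose start regions are printed above, 1 with the NRF1 letters (Opa1), 1 with the GABPA letters (Mrpl51) and 2 with none. Mrpl20 kept its call whichever array was left out. The other 3 calls were each lost without 54 h control array 2, with values of 1.45 for Opa1, 1.30 for Sdha and -1.24 for Mrpl51, and 2 members were then called, Mrpl20 and Timm9 (1.77). Opa1 was also lost without 54 h AM array 2 (1.33) and Mrpl51 without 54 h AM array 3 (-0.84). Calls gained without 1 AM array were those of Sdhc (-0.95, without array 1), Timm9 (1.80, without array 2) and Mrpl44 (-0.73, without array 3). In the values as deposited 2 members were called, Mrpl20 (-1.10) and Mrpl51 (-1.59), while Opa1 (1.46) and Sdha (1.09) were not. The second Opa1 probe was 1.27 ± 0.44 higher with AM and did not pass. The AM effect at 54 h minus that at 43 h was tested as an interaction, also chosen after seeing the data: 0 members passed in limma, where 0.0797% of probes did. The interaction was -1.03 ± 0.32 for Mrpl20 (limma unadjusted p = 0.0038, adjusted p = 0.22), 1.04 ± 0.54 for Opa1, 0.85 ± 0.50 for Sdha and -0.72 ± 0.48 for Mrpl51, so an AM effect at 54 h is not shown to differ from that at 43 h.

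**Figure D4:**
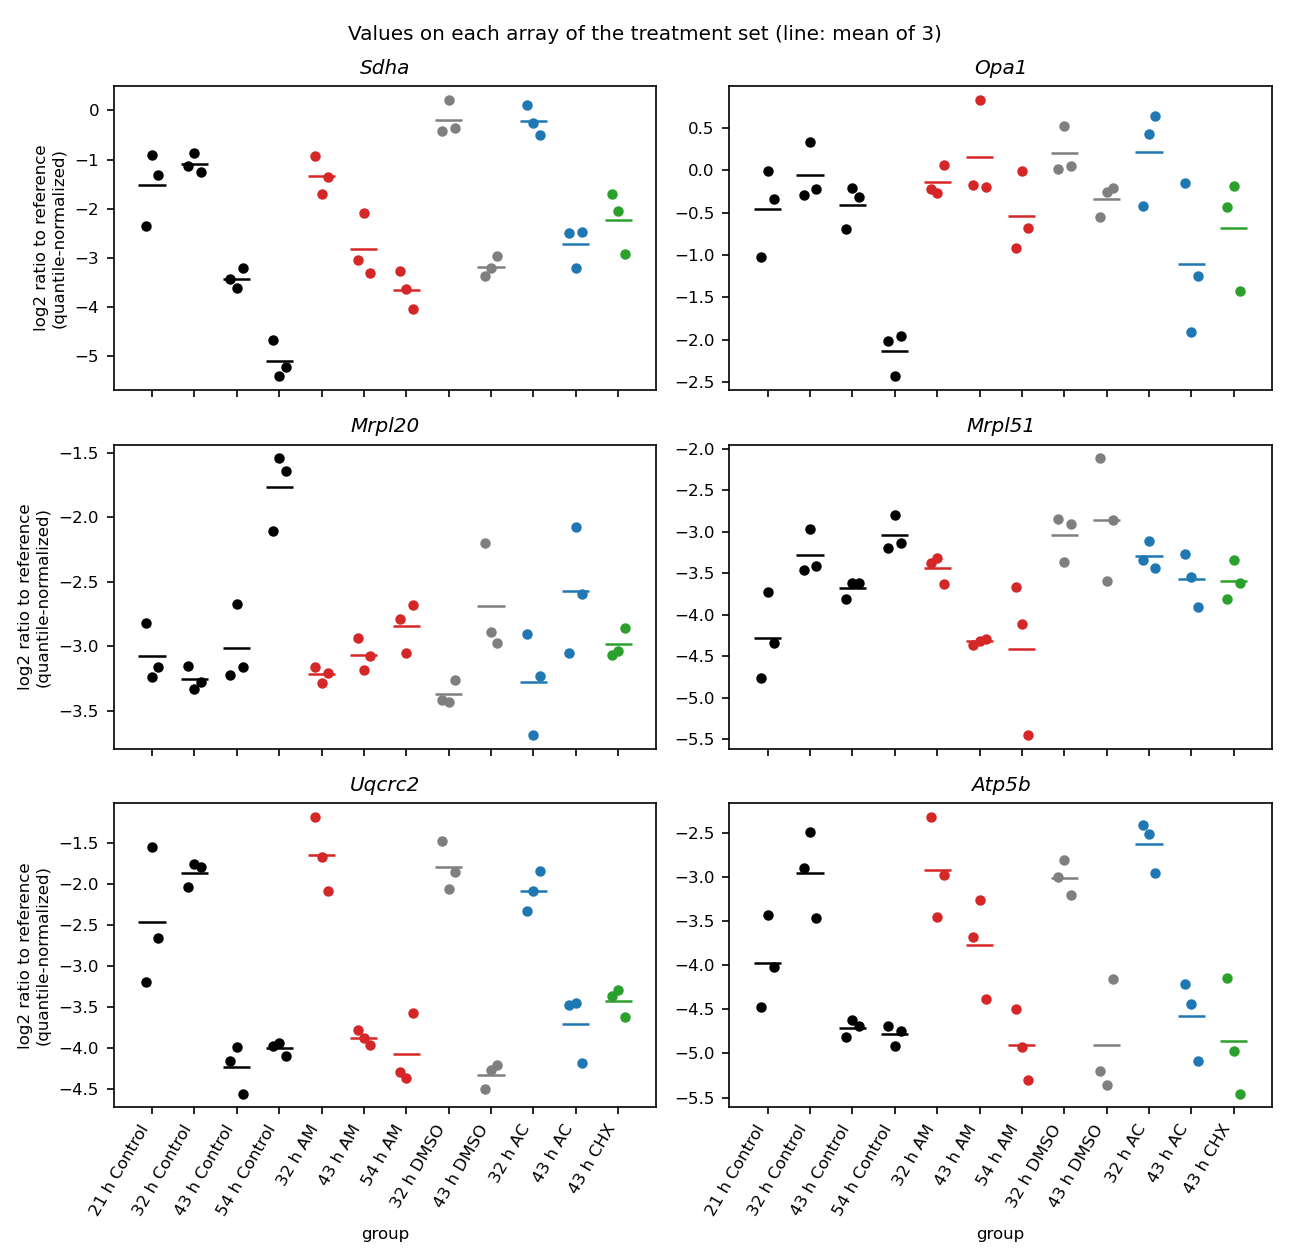
Quantile-normalized log2 ratio to the reference on each array of the 12 treatment groups for 6 members (black control, red AM, grey DMSO, blue AC, green CHX; lines are means of 3). At 54 h the AM arrays of Opa1 and Sdha lie above and those of Mrpl20 and Mrpl51 below all control arrays, while Uqcrc2 and Atp5b are low at 54 h with and without AM.

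Between 32 and 54 h in AM embryos 10 members changed, 3 higher and 7 lower, against 19% of probes (9.6% higher and 9.39% lower). Sdha fell by 2.32, Uqcrc2 by 2.43 and Atp5b by 1.99 on the log2 scale under AM. Uqcrc2 lay at -1.18, -1.67 and -2.09 at 32 h and at -4.29, -4.36 and -3.57 at 54 h, and its 54 h mean of -4.07 ± 0.44 (SD, n = 3) stood beside -3.97, -3.93 and -4.09 in 54 h controls. Atp5b stood at -4.91 ± 0.40 with AM and at -4.78 ± 0.12 in controls at that hour. Slc25a17 (-1.41), Mrpl51 (-0.97) and Mrpl44 (-0.79) fell as well. The tenth call was that of Mrpl24, at -1.15 on its chosen probe but at 0.0193 for the mean of its probes, so no direction is given for that gene.

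Tomm40 rose under AM by 1.13, Timm17b by 0.90 and Ndufc1, an accessory subunit of complex I, by 0.85. Treatment arrays were quantile-normalized, so a rise or fall in them is relative to the other probes. It need not be a change in message per embryo. Tomm40 lay at -1.76, -1.08 and -1.12 at 32 h and at 0.03, -0.73 and 0.14 at 54 h, when controls were at -0.09, 0.09 and -0.03. The groups of all 10 genes were separate, which a call itself favours. Atp5b, Mrpl24, Sdha, Timm17b and Uqcrc2 kept the call whichever array was left out. The call of Tomm40 was lost without 32 h AM array 1 (0.91) or 54 h AM array 3 (0.97), that of Slc25a17 without array 1 of either hour (-1.26 and -1.10), and that of Mrpl44 without 54 h AM array 1 (-0.60). Mrpl51 lost it without any 32 h AM array (-1.06 to -0.91) or 54 h AM array 3 (-0.45), and Ndufc1 without 32 h AM array 2 or 3 (0.72 and 0.86) or 54 h AM array 3 (0.50). Calls gained were those of Timm9 (-1.49, without 32 h AM array 3), Timm50 (1.45, without 54 h AM array 1), Cox6a2 (-1.18) and Slc25a24 (2.03, both without 54 h AM array 2). In the values as deposited Mrpl51 (-1.08) and Ndufc1 (0.56) were not called.

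CHX at 43 h lowered 1 member against control, Atp5mpl, where 2.25% of probes were called (1.26% lower). Atp5mpl lay at -2.62, -2.03 and -1.85 in controls and at -3.46, -3.41 and -3.44 with CHX, 2.41-fold lower (adjusted p = 0.021) with no overlap. The call was lost in the values as deposited (-1.30 ± 0.39), and without 43 h control array 2 (-1.20) or 3 (-1.11) or any 1 CHX array (-1.25 to -1.28). Sdha lay at -2.22 ± 0.63 with CHX and at -3.42 ± 0.20 in controls and was called without the CHX array numbered 4 (1.55).

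AC was compared with DMSO and DMSO with control. By limma 0 members passed for AC at 32 h (0% of probes, 0 members at an unadjusted p under the threshold) and 0 for AC at 43 h (0.204%, 5 members). For DMSO the count was 0 at 32 h (0.656%, 6 members) and 0 at 43 h (0%, 4 members). Of all 22575 probes, an unadjusted p under the threshold was found for 424 with AC at 32 h and 2844 at 43 h. For DMSO these numbers were 2424 and 1655. The AC count turned on 1 array: without 43 h AC array 1, which stood apart, 8 members were called, 4 higher and 4 lower, against 12.7% of probes (5.7% higher and 6.99% lower). Atp5g1 lay at 2.79 on that array and at 0.23 and 0.24 on the others, against 2.58, 1.75 and 2.12 with DMSO. Slc25a24, a carrier that exchanges ATP-Mg for phosphate, lay at -3.83 there and at -0.81 and -1.07 on the others, against -3.22, -3.85 and -3.53. Opa1 followed at -0.16, then -1.92 and -1.25, against -0.56, -0.26 and -0.21. The other 5 were Cox4i1 (1.39), Ndufa12 (1.68) and Ndufc1 (1.12), higher with AC, and Mrpl43 (-1.22) and Mrpl45 (-1.26 on its chosen probe), lower. In Atp5g1, Slc25a24 and Opa1, array 1 lay nearer to the DMSO arrays than the other AC arrays did. Because these members were called only without array 1, that position follows largely from their choice. The effects of AM at 43 h against 32 h, of AC and of DMSO at 43 h against 32 h were tested as interactions too, with 0% of probes called in each.

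**Figure D5:**
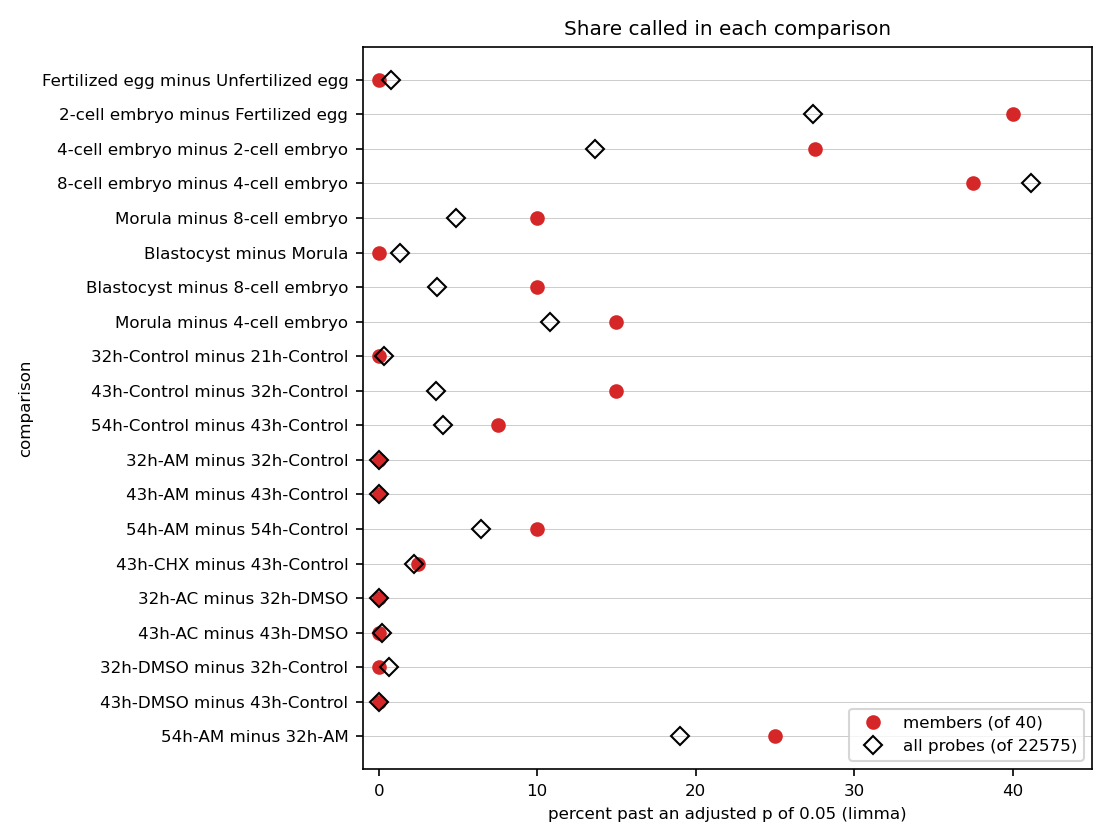
Percent of the 40 members (red) and of all 22575 probes (open diamonds) past an adjusted p of 0.05 in each of the 20 comparisons. The member share is 40% against 27.4% from fertilized egg to 2-cell and 37.5% against 41.1% from 4-cell to 8-cell, and both are at or near 0 in 9 comparisons.

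Other mitochondrial genes were read from 6 lists, on which 22 of 76 genes had a one-symbol probe. From fertilized egg to 2-cell embryo 2 of the 22 rose and 6 fell, where 14.5% and 12.9% of all probes did, with a median of -0.47 against 0.09 over all probes. The falls included 3 of 6 chaperones and proteases: Hspa9, the matrix chaperone of the import motor (3.6-fold), Yme1l1, an inner-membrane protease that cuts OPA1 (3.15-fold), and Trap1 (2.46-fold). Tfb1m, which methylates mitochondrial ribosomal RNA, fell 3.87-fold and Mfn1, an outer-membrane fusion GTPase, 2.21-fold. The rises were Ssbp1, which coats single-stranded mitochondrial DNA (2.23-fold), and Gabpa, the factor whose motif was searched above (2.3-fold).

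From 2-cell to 4-cell embryos 5 of the 22 rose and 0 fell (9.58% and 4.04% of all probes), 4 of the 5 being chaperones or proteases: Clpx (4.16-fold), Phb2 (2.9-fold), Yme1l1 (2.54-fold) and Trap1 (1.96-fold). From 4-cell to 8-cell embryos, which lie in different parts, 3 were higher and 8 lower (20.9% and 20.2% of probes), among them Mfn2, a partner of Mfn1 in fusion (5.46-fold higher), Phb2 (5.5-fold lower) and Pdhb, of pyruvate dehydrogenase (3.97-fold lower). At 54 h 2 of the 22 were higher with AM and 0 lower, where 2.12% and 4.34% of probes were. Gabpb1, the partner of GABPA, was 2.16-fold higher with AM and had fallen 2.28-fold in controls from 43 to 54 h. Sucla2, of succinyl-CoA ligase in the citric acid cycle, was 2.04-fold higher with AM. Trap1, the mitochondrial Hsp90, was 2.65-fold lower with CHX at 43 h.

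Of the 40 members, 33 were called in at least 1 of the 20 comparisons and 14 in at least 1 of the 12 in the treatment set. The matching shares of all probes were not computed, so these counts are not read as a trait of the members. Mrpl48, Ndufa1, Ndufa12, Sdhc, Slc25a15, Slc25a24 and Slc25a37 were called in none. Of these, Ndufa12 had the widest range over the stages, from -4.49 ± 0.62 (SD, n = 4) in unfertilized eggs to -1.97 ± 0.35 in morulae, with fertilized egg array 2 at -1.33 and the other fertilized eggs between -4.74 and -4.31. Slc25a15, the ornithine carrier, was listed at exactly 0 on 14 arrays. For RNA pooled from whole eggs or embryos, fewer cells of a type and less RNA per cell cannot be told apart, here or in any comparison above.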

How the data were processed

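The values that the authors deposited, for 64 arrays and 22575 probes, were taken as log10 ratios between channels. The labels name no log base, and log10 was read from limits at -2 and 2, which are 100-fold. Not given in the sources used here were background correction, within-array normalization and dyes. A factor of 3.32 and a turned sign made them log2 of embryo over reference. Of 2560 member values, 2 lay at a limit and 25 were exactly 0. Array number limits the precision. Stage arrays, whose medians spanned 0.24, were kept as deposited. Treatment arrays, with a span of 0.53, were quantile-normalized, by a rule with a limit of 0.5. Probes were named by the platform annotation, and all 40 members matched a current gene by Entrez number.

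Each set was fitted apart with limma 3.58.1 in R 4.3.3 (lmFit, contrasts, eBayes), with 1 mean per group, two-sided Benjamini-Hochberg adjustment over all probes of a comparison and a threshold of 0.05. A member is "called" below that threshold. Tables were made with Python 3.11.15 and pandas 2.3.3. The fit was tested on simulated data. Named were the 2 members of each subgroup with the widest range of stage means, up to 4 members of largest rise and 4 of largest fall per comparison, the largest called difference per subgroup and comparison, and Opa1. Other members named were chosen after their values were seen. Members, lists and alternatives were chosen with earlier results of these data known. Promoters are RefSeq's. Arrays were not treated as paired by replicate number, because in no comparison did every same-numbered pair correlate above 0.1. This rule cannot exclude pairing. The correlations were all positive for AC against DMSO at 43 h (0.08 to 0.31) and all negative for 2-cell embryos against fertilized eggs (-0.44 to -0.15).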

Additional observations from a re-analysis of the deposited data

Results flagged for a closer look

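In 8 of 112 groups of 4 stage arrays, for the 16 members made up of the 2 of widest stage range in each subgroup (fewer where a subgroup has 1), 1 array stood so far from the other 3 that it passed Dixon's criterion at 95%, which chance meets in about 1 in 20 groups. For Sdha, unfertilized egg array 4 was at -1.95 and the other eggs between 0.24 and 0.62. Also for Sdha, 8-cell array 4 was at -3.42, with the others between -3.58 and -3.55, a gap that is small in size. For Slc25a3, fertilized egg array 1 was at -1.04 with the others between 0.27 and 0.46, and 8-cell array 4 was at 2.74 with the others between 3.83 and 3.94. For Slc25a26, 8-cell array 1 was at 1.72 with the others between 3.27 and 3.51. For Ndufa12, fertilized egg array 2 was at -1.33 with the others between -4.74 and -4.31. For Cox4i1, 2-cell array 2 was at -4.31 with the others between -3.39 and -3.25. For Uqcrc2, blastocyst array 4 was at -0.35 with the others between 0.22 and 0.30. Of these, unfertilized egg array 4 belongs to the arrays that stood apart over all probes.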

How the results depend on the processing

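The counts of members called kept within 1.5 times of the values reported under the mean of a gene's probes and with values at a limit or exactly 0 left out, in all 21 counts. Quantile normalization of the stage set gave 1 member from unfertilized to fertilized egg and 1 from morula to blastocyst, and changed no other count by that much. With the part as a block the counts were 1 from unfertilized to fertilized egg, 2 from 4-cell to 8-cell and 0 from 8-cell to morula. The first part alone gave 1 from unfertilized to fertilized egg and 3 from 4-cell to morula, and the second part alone 0 from 8-cell to morula, 1 from morula to blastocyst and 9 from 8-cell to blastocyst. No part holds both 4-cell and 8-cell arrays, so that step has no value within a part. In the treatment set as deposited, 2 members were called for AM at 54 h and 0 for CHX. The replicate block changed the CHX count to 0 and no other count by over 1.5 times, with 33 members varying over the stages. Whether replicate numbers pair the arrays is not known, so why a call was lost under the block was not tested. Leaving out 1 array at a time gave 0 to 1 members from unfertilized to fertilized egg, 13 to 17 to the 2-cell, 5 to 12 to the 4-cell and 12 to 16 to the 8-cell stage, 0 to 9 to the morula, 0 to 3 from morula to blastocyst, 1 to 3 from 8-cell to blastocyst and 4 to 6 from 4-cell to morula. In the treatment set the ranges were 3 to 5 for controls from 32 to 43 h, 1 to 3 from 43 to 54 h, 2 to 5 for AM at 54 h, 0 to 1 for CHX, 0 to 8 for AC at 43 h and 7 to 12 for AM embryos from 32 to 54 h. Except for AC at 43 h, no share of all probes is given for the fits without 1 array. These ranges show only how far the counts moved. Averaging the probes of a gene turned the sign of Mrpl45 from 4-cell to 8-cell (0.0497) and of Mrpl24 in AM embryos from 32 to 54 h (0.0193), since their probes differ. Among the other results of named members, averaging ended 7 calls, added 1 and left 73 results as they were. Other causes were not tested. Background correction and the slide could not be varied from ratios alone.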
